A study of Mus musculus with 10 samples.

Results

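The starting fibroblasts of a chemical reprogramming experiment were the cells of day 0, named d0 in the deposited count table. Of 84 such cells, 72 had at least 4000 detected genes and were kept, out of 670 kept cells among 808 in the whole series. The kept cells with the fewest genes had 4084, 4160 and 4359, and the cells just short of the limit had 3706, 3735 and 3880. The study followed mouse embryonic fibroblasts (MEFs) on their way to cells that resemble extraembryonic endoderm (XEN), the lineage that lines the yolk sac, under the cocktail C6FAE (CHIR99021, the TGF-β receptor inhibitor abbreviated 6, Forskolin, AM580 and EPZ004777). The MEFs came from ICR mouse embryos at E13.5, of which the head, limbs and viscera had been discarded, so that the cells stem from the remaining trunk and are a mixture of its tissues. Day 0 cells are read as untreated from the study's methods, which add the cocktail after that day, whereas the labels give C6FAE for all samples. The other 11 groups had been in it for 1 to 20 days, and the groups d8c and d12c were picked from colonies of day 8 and day 12.

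Fibroblasts make and remodel the collagen-rich matrix of connective tissue, and in culture they also build a contractile apparatus of smooth muscle actin and its partners. They keep a record of where in the embryo they came from in the Hox genes, transcription factors whose clusters are expressed in nested domains along the body axis, with higher-numbered paralogues closer to the tail. Cells of such a culture can therefore differ in cell cycle, matrix, contractility and position of origin.

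Cells had been picked by hand, and each transcript was counted by its unique molecular identifier (UMI), so that a count is a number of distinct UMIs. Spike-in counts varied more between cells than counts of independent molecules would, as given below. Whether each UMI stood for a separate molecule was not tested, so small UMI numbers may stand for fewer molecules. Levels are given as UMIs of a gene per 1000000 UMIs of the cell (CPM), with spike-ins left out of the total. The 72 cells held 49225 to 3679274 UMIs, with a median of 344196, and 4084 to 10755 genes, with a median of 6720. The header names show no GEO sample for a cell, so day 0 was treated as 1 sample: there is no replicate, no test was made, and all differences describe these cells. Each cell carries a running number from 1 to 84. Cells numbered 1 to 48 (43 cells) had a median of 38.6 UMIs per spike-in UMI, and those numbered above 48 (29 cells) had 22.1, with median depths of 348193 and 340198 UMIs. The sources used here do not say what the numbers stand for, and values are given for both ranges where they differ.

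The label was checked against marker genes. Of 20 fibroblast genes, 7 had a UMI in all 72 cells and 15 in 65 or more. *Col1a1*, the main chain of fibrillar collagen, was found in 72 of 72 cells with a median of 1046 CPM, and the intermediate filament *Vim* had a median of 1264 CPM. In 71 of 72 cells (98.6%, exact Clopper-Pearson 95% interval 92.5 to 99.96) the summed level of the fibroblast list was above that of each of 7 other lists, for epithelial, endothelial, blood, neural and Schwann, mesothelial, skeletal muscle and XEN cells. This comparison does not by itself establish the label. *Lgals1* alone had a median of 10726.5 CPM over the cells other than number 4, against 17870 CPM for the whole fibroblast list over all cells. On the means of the XEN-like cells of day 20 the fibroblast list also led, with 2871 CPM against 2345 CPM for the epithelial and 1371 CPM for the XEN list. Intervals here and below cover counting error only, and those on sums of UMIs take the UMIs as independent. The medians of those lists were at most 12.0 CPM, apart from the XEN list at 44.7 CPM of which *Dab2*, an endocytic adaptor, was found in 62 cells with a median of 44.4 CPM. Of the genes that define the target lineage, *Sox17* had 1 UMI in 1 cell, *Gata4* had UMIs in 2 cells, and *Sall4* and *Foxa2* had none in 72 cells, which allows a share of cells with a UMI of up to 4.17% (3 cells of 72) and does not bound expression.

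The 5 genes given as markers of these cells were *Aspn*, an inhibitor of TGF-β signalling in the small leucine-rich proteoglycan family (chr13:49639812-49662926, mm9); *Tnmd*, a membrane protein of tendon and ligament (chrX:130385519-130400116); *Ctgf*, a matricellular protein induced by mechanical tension (chr10:24315248-24318489); *Ankrd1*, a stretch-responsive ankyrin repeat protein (chr19:36186455-36194334); and *Cspg4*, the NG2 proteoglycan of pericytes and mesenchymal progenitors (chr9:56712911-56747677). The set had been chosen as markers of day 0 and is no independent evidence of a difference from later cells. None of them was a uniform property of the cells. *Aspn* ranged from 0 to 2763 CPM with a median of 37.8, had a UMI in 52 of 72 cells and exceeded 100 CPM in 30. *Tnmd* ranged from 0 to 4169 CPM with a median of 10.1 and exceeded 100 CPM in 24 cells, so that its mean of 489 CPM described very few of them. *Ctgf* was found in the most cells of the 5, from 0 to 1774 CPM with a median of 106 and UMIs in 67 cells. *Ankrd1* had a median of 10.5 CPM and a highest value of 9156 CPM, in the cell numbered 15. Without that cell its mean fell from 353 to 229 CPM. *Cspg4* ranged from 0 to 363 CPM with a median of 14.7 and exceeded 100 CPM in 16 cells.

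Correlations among the markers were highest within 2 pairs. Across the 72 cells, *Aspn* and *Tnmd* had a Pearson correlation of log2(CPM + 1) of 0.64 (0.73 and 0.47 in cells numbered 1 to 48 and above 48): 20 cells exceeded 100 CPM for both, 10 for *Aspn* alone, 4 for *Tnmd* alone and 38 for neither. *Ctgf* and *Ankrd1* had a correlation of 0.34, with 15 cells above 100 CPM for both. Between the pairs the values were near 0 or below it: 0.04 for *Aspn* with *Ctgf*, 0.18 for *Tnmd* with *Ctgf* and -0.28 for *Aspn* with *Ankrd1*. *Cspg4* followed none of the other 4, with correlations of 0.01 to 0.12. All such values are descriptions over cells that share a protocol and differ in depth. The correlation of each marker with log2 UMIs lay between -0.21 and 0.26, and that of their sum was -0.01, but 0.22 in cells 1 to 48 and -0.64 above 48. By running number, the median of *Aspn* was 6.91 CPM in cells 1 to 48 and 121 CPM above 48, whereas *Ankrd1* went the other way, with medians of 30.0 and 3.0 CPM.

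**Figure D1:**
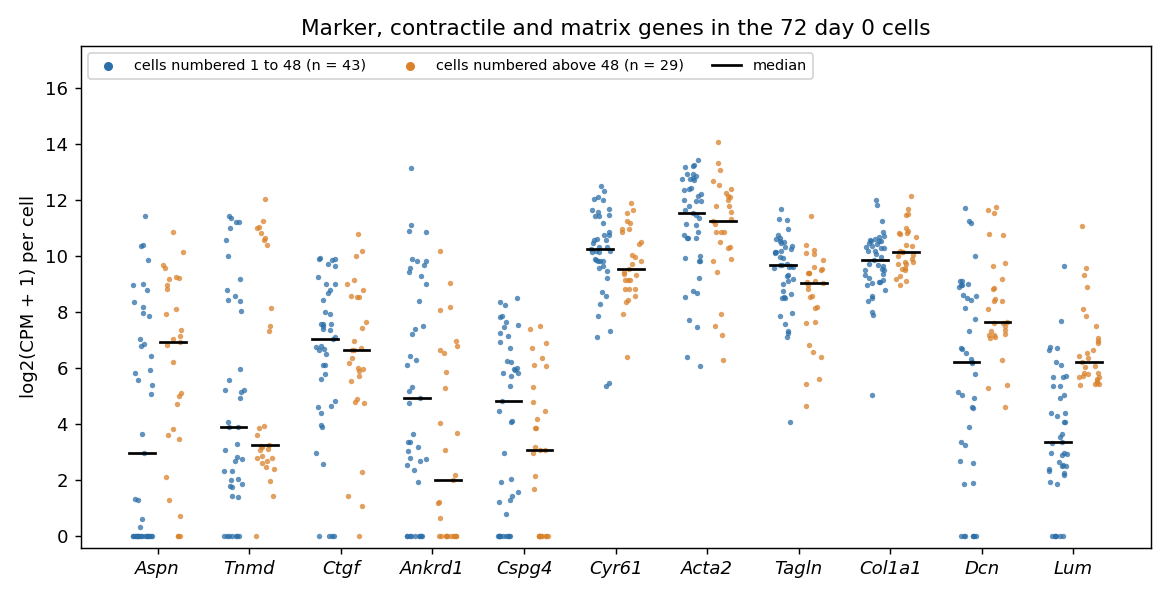
Level of 11 genes in each of the 72 day 0 cells, as log2(CPM + 1) on the vertical axis; each point is a cell, blue for numbers 1 to 48 and orange for numbers above 48, and black bars are the medians of each range. *Aspn*, *Tnmd* and *Ankrd1* run from 0 CPM to 2763, 4169 and 9156 CPM, whereas *Acta2* and *Col1a1* were found in all 72 cells.

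The genes whose levels were most like each marker over these cells, among 5181 genes with a mean of at least 20 CPM, differed between the pairs. For *Aspn* they were *Tnmd*, the fibrillar collagen *Col3a1* (0.58) and the microfibril protein *Fbn2* (0.54). For *Tnmd* they were *Aspn*, the myosin light chain *Myl9* (0.59) and the microfibril-associated *Mfap4* (0.56). The closest to *Ctgf* was *Cyr61*, its relative in the CCN family (0.60), followed by the co-chaperone *Bag2* (0.52) and the integrin activator *Fermt2* (0.52). For *Ankrd1* they were *Zdhhc6* (0.51), and *Gins2* (0.50) and *Fen1* (0.48), both parts of the DNA replication machinery. For *Cspg4* they were *Gfm1* (0.61), *Ifi30* (0.56) and *Tkt* (0.56). The *Aspn* and *Tnmd* neighbours were matrix and contractile genes, and those of *Ankrd1* included replication genes.

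*Tnmd* is known from tendon, and the tendon regulators were rare in these cells. In the 20 cells above 100 CPM for both *Aspn* and *Tnmd*, where the median of *Tnmd* was 1567 CPM, the tendon transcription factor *Scx* had a UMI in 1 cell and *Mkx* in 3, against 4 and 4 of the 38 cells above 100 CPM for neither. *Comp*, a cartilage and tendon matrix protein, had no UMI in 72 cells. *Fmod*, a collagen-binding proteoglycan, had UMIs in 10 of the 20 cells and 5 of the 38. The median of *Col3a1* was 578 CPM in these 20 and 81.4 CPM in the 38, and that of the imprinted transcript *H19* was 649 and 176 CPM. *Mki67*, a marker of cycling cells, had medians of 4.80 and 41.9 CPM. These are values over cells chosen by their *Aspn* and *Tnmd* counts, and the 20 included 11 cells numbered 1 to 48, against 27 of the 38.

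Variation of every gene was set against genes of similar level. The squared coefficient of variation (CV squared, variance over squared mean of CPM) was at least 2 times the running median of the 200 genes nearest in mean for 632 of 5181 genes (12.2%). For genes with a mean of at least 50 UMIs the median CV squared was 0.51, and the 15 spike-ins above the same limit had a median of 0.11. These sets were not matched in level, since spike-in means reached 6341 counts. Spike-ins with means of 53.1 to 111 counts had a CV squared of 0.34 to 0.53, near that of the genes. The trend fitted to 47 spike-ins was 22.6 over the mean count plus 0.0168, whereas independent counts would give 1 over the mean. The most even abundant gene named here was *Lgals1*, a galectin of mesenchymal cells: its CV squared was 0.04 around a mean of 10646 CPM, and its ratio to the running median was 0.24. Of the 15 genes of largest ratio, 13 had their highest value in 1 cell, numbered 4. They were *Tnnc1*, *Actc1*, *Acta1*, *Mylpf*, *Myl4*, *Tnnt2*, *Ttn*, *Tnnt1*, *Tnnc2*, *Myog*, *Myl1*, *Tnnt3* and *Tnni1*, which are contractile proteins of striated muscle and, in *Myog*, the factor that drives muscle differentiation. The other 2 were *Fabp7*, a glial fatty acid binding protein highest in cell 14, and *Xaf1*, an interferon-induced gene highest in cell 48.

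Cell 4 held the genes of differentiating skeletal muscle. Of its 124320 UMIs, 12288 (98842 CPM) belonged to 14 muscle genes, of which the other 71 cells had 0 to 152 UMIs and a median of 36.5 CPM. *Tnnc1* gave 2006 UMIs, *Actc1* 1941, *Acta1* 1614, *Myog* 550 and *Myod1*, a determination factor of the lineage, 72. The progenitor markers *Pax7* and *Myf5* and the mature enzyme *Ckm* had 0 UMIs in all 72 cells. In the same cell *Col1a1* had 4 UMIs, *Col1a2* 1 and *Dcn* and *Bgn* 0, while *Lgals1* was at 11334 CPM, near the 10726 CPM median of the other cells. The cell cycle inhibitors *Cdkn1a* and *Cdkn1c* were at 5325 and 997 CPM, against medians of 1691 and 58.4 CPM, and *Mki67* was at 0. Of the other groups, d2 and d12c each had 1 cell with a comparable sum, at 61546 and 124142 CPM of the same 14 genes. With cell 4 left out, 608 genes had excess variation. Of the 632 with all cells, 41 were highest in cell 4 but 68 in cell 51, and 30, 23 and 22 in cells 46, 14 and 41. Cells 51, 46 and 41 held 122631, 137086 and 55367 UMIs and 4467, 4498 and 4822 genes, below the medians of the 72 cells. Whether depth played a part was not tested.

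A few other cells had high levels of some genes of a lineage, most of which also had UMIs in other cells. Cell 14 had 1499 UMIs of *Fabp7*, 790 of the neurotrophin receptor *Ngfr*, 35 of *Foxd3* and 7 of *Sox10*, both neural crest factors, whereas *Foxd3* was absent from the other 71 cells. *Fabp7* and *Ngfr* each had UMIs in 18 other cells. The fibroblast list summed to 18107 CPM in cell 14, near the median of 17870 CPM, whereas its small leucine-rich proteoglycans, at 4.95 CPM, were the lowest of the 72 cells and its contractile genes, at 2446 CPM, the second lowest. Cells 25 and 43 had 3604 and 1685 CPM of *Upk1b* and 684 and 394 CPM of *Upk3b*, uroplakins made by mesothelium, and *Upk3b* was found in 4 of 72 cells in all. Other mesothelial markers were mixed: *Msln* was at 346 and 94.5 CPM and *Wt1* at 36.0 and 142 CPM, but *Krt19* was at 12.0 CPM in cell 25 and 0 in cell 43, against up to 412 CPM in other cells, and *Lrrn4* had 0 and 1 UMI. Cell 76 had 2934 CPM of the lipase *Lpl*, 1930 CPM of the lipid carrier *Fabp4*, 91.4 CPM of *Pparg*, which reached 187 CPM in another cell, and 85.9 CPM of *Cebpa*, the adipocyte factors, but no UMI of *Adipoq* or *Plin1* was found in any of the 72 cells. It also had the highest summed levels of collagens, at 11725 CPM, and of inflammatory genes, at 21122 CPM. Cell 27 had 1043 CPM of the cartilage collagen *Col2a1* and 175 CPM of *Col9a3*, but *Sox9*, the factor of the cartilage lineage, and *Matn4* had no UMI in it and *Acan* had 1. *Col2a1* had UMIs in 21 other cells, with up to 556 CPM. Cells 18 and 35 had 5852 and 5338 CPM of *Spp1*, osteopontin, against a median of 87.1 CPM in the others, and the bone gene *Ibsp*, found in 34 cells, had no UMI in either. The summed level of the fibroblast list in these 7 cells was 12110 to 21052 CPM, within the range of 6164 to 29103 CPM over all cells. No doublet caller was run, and whether any of them was a doublet was not tested.

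**Figure D2:**
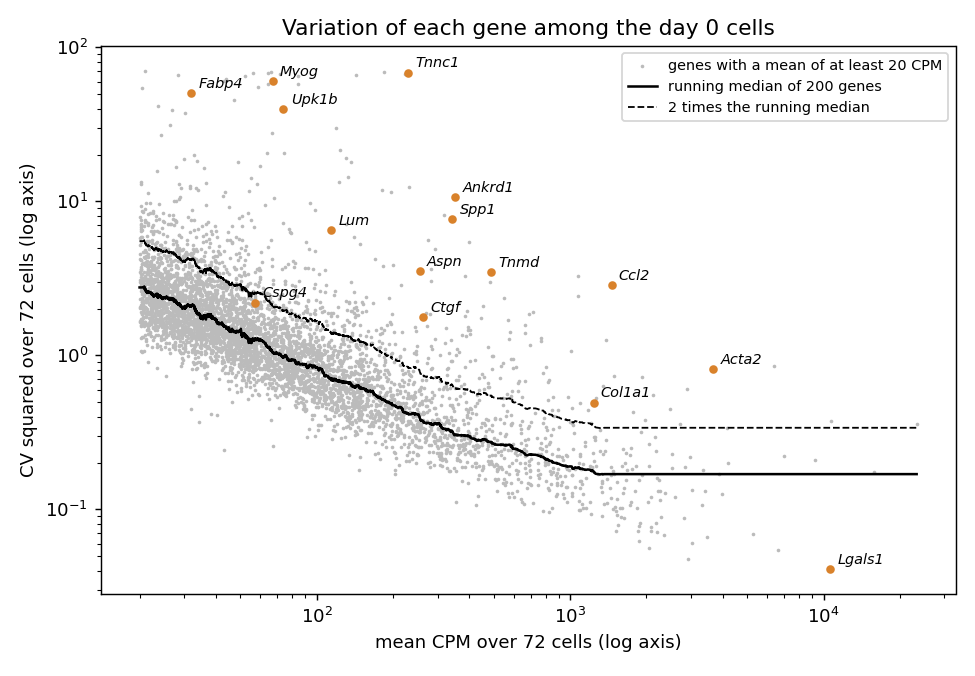
Mean CPM (horizontal, log axis) against CV squared (vertical, log axis) over the 72 day 0 cells for 5181 genes; the solid line is the running median and the dashed line 2 times it. Orange points are named genes: *Lgals1* lies below the running median, *Cspg4* between the lines, and the muscle gene *Tnnc1*, carried by 1 cell, at the top.

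With the highest cell of each gene left out, 412 genes were above the limit, 363 of them among the 632. A single further cell can still carry a gene, as cell 43 does for *Upk1b*. The 15 with the largest ratio then included the tetraspanin *Upk1b*, the aggrecanase *Adamts4*, the myosin kinase *Mylk*, *Spp1*, the chemokines *Ccl2*, *Ccl7* and *Cxcl14*, the neuropeptide *Cck*, *Cdkn1c*, *Tnmd*, the scaffold protein *Akap5* and *Dcn*. The monocyte chemoattractant *Ccl2* was found in all 72 cells with a median of 567 CPM and a highest value of 14061 CPM, in cell 76. *Ccl7* had a median of 244 and a highest value of 10316 CPM, in cell 84. *Ccl2* and *Ccl7* varied together, with a correlation of 0.68 (0.72 and 0.59 in the 2 ranges), and 40 cells exceeded 100 CPM for both. By contrast *Il6* had UMIs in 9 cells, and *Lcn2* and *C3* in none.

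Most collagens varied by more than genes of their level. Of 13 collagens measured for variation, 8 had a ratio of at least 2, against 12.2% of all genes; the median ratio was 2.49, and 1.00 over all genes. *Col1a1* and *Col1a2*, the chains of type I collagen, had medians of 1046 and 783 CPM and a correlation of 0.69, and cell 4 was the lowest for both. *Col3a1* ranged from 0 to 3471 CPM, and *Col4a1*, of basement membranes, had a median of 64.9 CPM and 2783 CPM in cell 76. Summed over 16 genes, the collagens ranged from 113 to 11725 CPM, with quartiles of 2443 and 4953 CPM. The 24 matrix glycoproteins moved with them: their summed levels had a correlation of 0.82, which was 0.84 in both ranges of running number. *Sparc*, a collagen-binding glycoprotein, had a median of 1634 CPM, *Thbs1* 421 CPM and *Fn1*, fibronectin, 296 CPM. Among the glycoproteins, 10 of 23 had a ratio of at least 2; the largest were those of the adhesion protein *Tgfbi* (6.35, with 62 cells and 772 CPM in cell 43), the elastic microfibril protein *Mfap5* (6.34) and *Postn* (6.21).

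The small leucine-rich proteoglycans, which coat collagen fibrils, had the largest median ratio of the 4 matrix lists, at 3.51. Of 7 measured, 6 had a ratio of at least 2, against 12.2% of all genes. Their summed level ran from 4.95 to 6882 CPM. *Dcn*, decorin, ranged from 0 to 3423 CPM with a median of 160, and *Lum*, lumican, from 0 to 2163 CPM with a median of 43.3; both were highest in cell 54. *Bgn*, biglycan, was found in 71 cells with a median of 391 CPM. *Prelp* had a median of 0 and was found in 26 cells. *Dcn* and *Lum* had a correlation of 0.55 over all cells, 0.34 in those numbered 1 to 48 and 0.82 above. This family differed between the ranges of running number, with 5 of 7 genes higher by over 1 on the mean log2(CPM + 1) scale in cells above 48. Among all 5181 genes, 324 were higher in them by that much (6.25%) and 210 lower (4.05%). The largest differences were 3.06 for *Lum*, 2.85 for the WNT antagonist *Sfrp2*, 2.82 for the myo-inositol transporter *Slc5a3*, 2.74 for the pentraxin *Ptx3*, 2.55 for *Dcn* and 2.36 for *Cxcl14*. In the other direction they were -2.68 for the linker histone *Hist1h1e*, -2.65 for *Akr1e1*, -2.52 for *Plgrkt*, -2.27 for *Krt19*, -2.19 for *Fos* and -2.09 for *Zfp830*. What the ranges stand for cannot be told from the sources used here.

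Among the enzymes and inhibitors that remodel matrix, 6 of 11 had a ratio of at least 2, against 12.2% of all genes. *Lox*, which crosslinks collagen, was found in all 72 cells with a median of 366 CPM. *Loxl2* had a median of 329 CPM and 4783 CPM in cell 73, the inhibitor *Timp1* had a median of 504 CPM, and *Timp3* reached 3087 CPM in cell 43. The aggrecanase *Adamts5* was found in 49 cells and had a median of 9.53 CPM.

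Contractile genes varied with each other and little with the collagens. Of 19 targets of the actin-responsive factors SRF and YAP, 12 had a ratio of at least 2, against 12.2% of all genes, with a median ratio of 2.67. *Acta2*, smooth muscle actin, was found in every cell, with a lowest value of 66.5, a median of 2727 and a highest value of 17073 CPM, in cell 60. *Tagln*, transgelin, had a mean of 819 CPM, and its correlation with *Acta2* was 0.76 (0.73 and 0.86 in the 2 ranges). *Actg2*, the enteric smooth muscle actin, was less general, with a median of 5.79 CPM and 1715 CPM in the same cell 60, which was also the highest for *Tpm1*, *Cnn2* and *Myl9*. The list summed to 2355 CPM at the lowest, 9967 CPM at the median and 40481 CPM in cell 60. Its correlation with the collagens was 0.19, or 0.20 and 0.32 within the ranges. The CCN and ankyrin repeat members were looser: *Ctgf* had a correlation of 0.60 with *Cyr61*, 0.44 with *Acta2* and 0.34 with *Ankrd1*, and *Ankrd1* had one of 0.25 with *Acta2*.

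Promoters of *Cyr61*, *Ankrd1* and *Acta2* are shown as examples of the list that hold the motif GGAATG, bound by the TEAD partners of YAP. The 250 bases before the start of each gene were read from RefSeq (GRCm38.p6) and are printed 5′ to 3′ on the gene's strand, with GGAATG or its reverse complement CATTCC in capitals; *Cyr61* is named *Ccn1* there, and the windows are chr3:145649986-145650235 (minus strand), chr19:36119845-36120094 (minus) and chr19:34255374-34255623 (minus).
Cyr61: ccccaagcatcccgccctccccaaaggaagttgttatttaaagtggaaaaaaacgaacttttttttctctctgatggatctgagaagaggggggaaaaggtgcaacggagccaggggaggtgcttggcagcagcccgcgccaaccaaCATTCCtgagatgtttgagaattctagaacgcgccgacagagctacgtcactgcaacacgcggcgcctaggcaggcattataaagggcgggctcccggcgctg
Ankrd1: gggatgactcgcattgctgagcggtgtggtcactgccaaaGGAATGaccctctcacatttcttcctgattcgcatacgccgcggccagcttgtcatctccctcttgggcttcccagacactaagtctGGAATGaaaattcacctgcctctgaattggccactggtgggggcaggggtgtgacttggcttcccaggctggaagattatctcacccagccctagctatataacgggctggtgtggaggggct
Acta2: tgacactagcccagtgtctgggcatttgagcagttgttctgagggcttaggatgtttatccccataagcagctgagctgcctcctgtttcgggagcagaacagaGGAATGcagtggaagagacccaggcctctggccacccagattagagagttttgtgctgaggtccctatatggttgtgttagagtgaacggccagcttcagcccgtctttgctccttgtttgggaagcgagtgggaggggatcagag
The motif began 103 bases before the start of *Cyr61*, at 210 and 123 bases before that of *Ankrd1* and at 146 bases before that of *Acta2*. It was found on either strand for 8 of 16 genes of the contractile list, and in 12.6% of 32851 promoters. The CArG box, the SRF element, was searched only in the strict form CCWWWWWWGG, where W is A or T. It was found for 4 of the 16 genes and in 1.47% of all promoters. Runs near this form, such as ccctatatgg and ccttgtttgg in the *Acta2* window, were not counted. A listed gene counted if any of its promoters held the motif, whereas the 32851 were counted singly, so the shares are not like for like. A match is a run of letters and says nothing of binding.

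Cell cycle genes left the cells on either side of a gap. The summed level of 54 genes of the G2 and M phases ranged from 973 CPM in cell 4 to 21752 CPM in cell 63, a span of 22.3-fold. Ordered by this sum, the cells left a gap: 25 cells lay between 973 and 2218 CPM, 47 cells between 3763 and 21752 CPM, and none between, a step of 1.70-fold that was the largest between neighbours. The gap was seen after the values were known, and 19 cells lay within 1.5-fold of either edge. After each cell was thinned to 50000 UMIs, which 71 cells allowed, the edges of the gap were 2160 and 3600 CPM. Median depth was 350469 UMIs below it and 340198 above it, and 15 of the 25 and 28 of the 47 were numbered 1 to 48.

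Single genes of the list are given on the 2 sides as a description, since their sum made the division, and each of those named overlapped between the sides. *Ccnb1*, the cyclin that triggers mitosis, had medians of 13.3 CPM below the gap and 191 CPM above it, and ranged from 3.59 to 48.9 CPM and from 11.5 to 1084 CPM. *Birc5*, survivin, had medians of 24.7 and 635 CPM. For *Top2a*, which untangles replicated chromosomes, they were 7.19 and 238 CPM. *Mki67* was at a median of 0 CPM below the gap, with no cell over 14.1 CPM, and at 60.4 CPM above it, where 42 of 47 cells had a UMI. Among 49 G2/M genes with a mean of at least 20 CPM, the correlation of a gene with the sum of the rest had a median of 0.70 and was highest for *Ccnb1* (0.90) and *Birc5* (0.87). Outside the list, the genes most like the sum were the mitotic spindle proteins *Prc1* (0.84) and *Knstrn* (0.80), the histone variant *H2afz* (0.80) and the condensin *Smc2* (0.80). Of 49 G2/M genes measured for variation, 16 had a ratio of at least 2, with the centromere protein *Cenpf* largest at 10.1 and 4181 CPM in cell 80; of 28 S phase genes, 3 did, *Hells*, *Clspn* and *Rad51ap1*, a share no higher than the 12.2% of all genes.

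S phase genes overlapped across the gap. The summed level of 41 of them ranged from 445 to 6204 CPM, with medians of 1197 CPM below the gap and 2989 CPM above it, and 13 of the 25 exceeded the lowest of the 47. The 2 sums had a Pearson correlation of 0.63 and a Spearman correlation of 0.44. The 5 cells of highest G2/M sum had 2250 to 3482 CPM of S phase genes, below the 6204 CPM of cell 77. *Rrm2*, a ribonucleotide reductase subunit, had medians of 94.5 and 423 CPM, and *Pcna*, the sliding clamp, of 126 and 231 CPM.

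Inhibitors and cyclins of G1 had overlapping ranges on the 2 sides. *Cdkn1a*, the inhibitor p21, was found in all 72 cells, with medians of 2239 and 1546 CPM on the 2 sides and a correlation of -0.07 with the G2/M sum. *Ccnd2* had medians of 923 and 668 CPM, *Ccnd1* of 63.8 and 205 CPM and *Cdkn1c* of 102 and 51.0 CPM. *Cdkn2a*, the locus of the senescence inhibitors p16 and p19, was near the limit of detection: 14 of 72 cells had a UMI, and 2 of 71 after thinning, at a mean of 0.47 CPM. Of the matrix genes, *Col1a1* had like medians, 1169 and 999 CPM, whereas *Col3a1* had 337 and 143, *Dcn* 516 and 139 and *Aspn* 110 and 25.6 CPM. The correlation of the G2/M sum with the collagens was 0.06 in cells 1 to 48 and -0.54 above 48, with the glycoproteins -0.06 and -0.49, and with the small leucine-rich proteoglycans -0.08 and -0.48. *Ankrd1* was higher above the gap, with no cell over 149 CPM among the 25 and up to 9156 CPM among the 47.

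**Figure D3:**
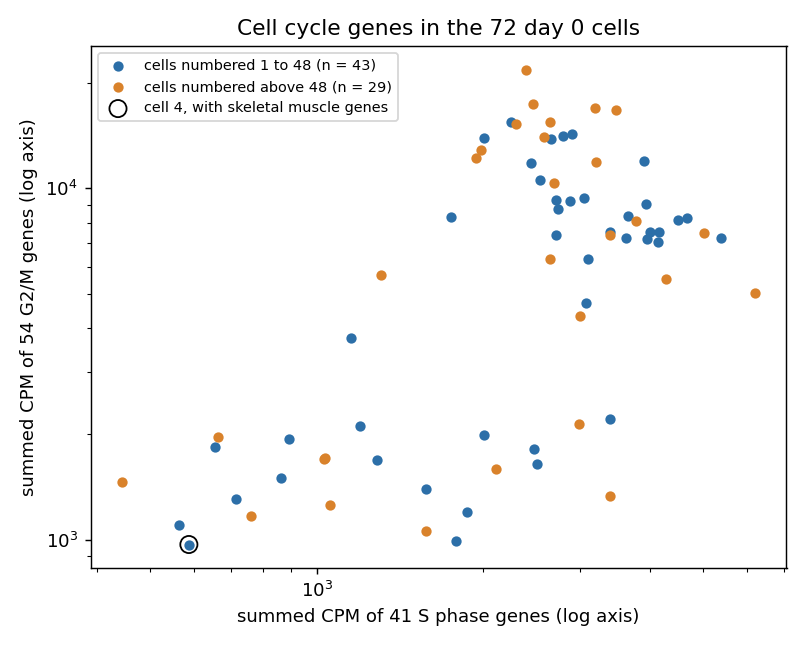
Summed CPM of 41 S phase genes (horizontal) against that of 54 G2/M genes (vertical), both on log axes, for the 72 day 0 cells; colours are the ranges of running number, and the circle is the muscle gene cell 4. No cell lies between 2218 and 3763 CPM of G2/M genes, and both ranges of number are found on either side.

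The promoters of leading genes of this division are shown for the CCAAT box, bound by NF-Y, and the cell cycle element TTTGAA (CHR), with either strand of both in capitals. *Ccnb1*, *Birc5* and *Ube2c*, the ubiquitin carrier that ends mitosis, were among the 6 genes of largest positive weight on the second principal component, described next. The windows are chr13:100786487-100786736 (minus strand), chr11:117848987-117849236 (plus) and chr2:164769679-164769928 (plus) of GRCm38.p6, again 250 bases before the start from RefSeq.
Ccnb1: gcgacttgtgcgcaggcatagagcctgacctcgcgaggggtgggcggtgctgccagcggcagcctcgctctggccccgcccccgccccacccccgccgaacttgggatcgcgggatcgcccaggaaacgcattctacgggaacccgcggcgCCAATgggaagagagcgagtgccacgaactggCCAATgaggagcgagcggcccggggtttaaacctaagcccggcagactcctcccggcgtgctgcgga
Birc5: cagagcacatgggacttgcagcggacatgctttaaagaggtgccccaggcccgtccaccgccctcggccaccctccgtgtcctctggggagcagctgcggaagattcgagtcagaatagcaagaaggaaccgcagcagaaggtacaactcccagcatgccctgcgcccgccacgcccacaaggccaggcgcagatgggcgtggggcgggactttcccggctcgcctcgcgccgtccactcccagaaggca
Ube2c: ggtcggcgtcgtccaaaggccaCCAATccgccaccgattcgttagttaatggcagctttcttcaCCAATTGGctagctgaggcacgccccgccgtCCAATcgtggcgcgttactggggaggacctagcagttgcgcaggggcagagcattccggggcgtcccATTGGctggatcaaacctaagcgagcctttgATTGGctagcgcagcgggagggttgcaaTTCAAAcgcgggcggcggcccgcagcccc
*Ccnb1* held 2 CCAAT boxes, at 99 and 67 bases before the start, *Ube2c* held 6, of which 2 overlap, and 1 CHR, at 29 bases before the start, and *Birc5* held neither motif in this window. Over the G2/M list, 37 of 48 genes had a promoter with a CCAAT box (77.1%) and 20 one with a CHR (41.7%), against 33.8% and 16% of all promoters. A listed gene counted if any of its promoters held the motif, whereas all promoters were counted singly, so these shares are not like for like.

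Principal components of the 500 genes of largest excess variation restated these axes, each with a small share: 7.46% for the first, 6.48% for the second and 5.74% for the third. The second ran from *Birc5*, *Hmgb2*, *Ccnb1*, *Ube2c*, *Hmmr* and *Prc1*, all cell cycle genes, to *Maged2*, *Col3a1*, *Ogn*, *Ctsd*, *Tmem176b* and *Aspn*, which include 3 matrix genes, and its correlation with running number was -0.07. The first ran from *Lum*, *Ifitm3*, *Ptx3*, *Penk*, *Luc7l2* and *Col3a1* to *Krt19*, *Tnni1*, *Msln*, *Col2a1*, *Nes* and *Ckb*. Its correlation with running number was 0.66 and with log2 UMIs -0.02. The third had correlations of 0.47 with log2 UMIs, 0.63 with the number of detected genes and -0.47 with running number.

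Hox genes from both ends of the trunk series were found, each in a part of the cells. Of 39 Hox genes, 35 had a UMI in at least 1 cell; *Hoxa6*, *Hoxa13*, *Hoxb13* and *Hoxd13* had none. A cell had 2 to 24 of them with a UMI, with a median of 8.5, or 4 after thinning to 50000 UMIs; the correlation of this number with log2 UMIs was 0.63. To judge detection, sex-linked genes gave a background: among 22 cells with more Y-linked than *Xist* UMIs and at least 5 of them (median depth 516162 UMIs), 7 had an *Xist* UMI (31.8%, and 4.55% thinned), and among 30 cells of the opposite kind (531266 UMIs) 13 had a Y-linked UMI (43.3%, and 10.0% thinned). Shares of 8 Hox genes were above both of these, with all UMIs and thinned. Another 6, among them *Hoxa9*, *Hoxb7* and *Hoxd8*, exceeded it after thinning only (22.5%, 19.7% and 16.9%). A share at or below it was not told apart from background, and is not shown to be background. The Y-linked genes and *Xist* were pooled at 130 and 52.3 CPM in their own cells, and whether their background holds for Hox genes of other levels was not tested. The 13 cells include cells 54 and 60, with 21 and 8 Y-linked UMIs. Single cells can be well above the background's level, pooled at 0.880 and 2.25 CPM.

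The 8 were *Hoxa7*, *Hoxa10*, *Hoxb2*, *Hoxc4*, *Hoxc5*, *Hoxc8*, *Hoxc9* and *Hoxc10*. *Hoxc5* had a UMI in 51 of 72 cells (70.8%, interval 58.9 to 81.0; 28.2% thinned) and *Hoxb2* in 49 (68.1%, 56.0 to 78.6; 38.0% thinned). *Hoxa10* was found in 44 cells (61.1%, 48.9 to 72.4; 31.0% thinned) and *Hoxc10* in 36 (interval 38.0% to 62.0%; 26.8% thinned). These belong to the anterior and the lumbar ends of the nested series. UMIs of a gene of groups 4 or 5 and of groups 10 to 13 were found in 53 cells, of the first alone in 13, of the second alone in 5 and of neither in 1. Thinned, these numbers were 18, 23, 18 and 12 of 71 cells. Most cells had each set, so the counts do not show that the sets occur together more often than their separate shares would give. They also pool genes that were not above the background. Levels were patchy. *Hoxa7* reached 778 CPM in cell 38 around a mean of 37.2, *Hoxc8* 348 CPM around 18 and *Hoxc9* 327 CPM around 34.8, and 13 of the 39 genes exceeded 100 CPM in some cell. *Hoxa10* and *Hoxc10*, of the same group in different clusters, were found together in 27 cells, *Hoxa10* alone in 17, *Hoxc10* alone in 9 and neither in 19, with a correlation of levels of 0.42.

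The most posterior Hox gene with a UMI was of group 10 in 34 cells and of group 11 in 17, and in all 58 of 72 cells (80.6%, 69.5 to 88.9) had a gene of groups 10 to 13; thinned, 50.7% did. These counts add up several genes, and of groups 10 to 13 the shares of *Hoxa10* and *Hoxc10* alone exceeded the background on both counts. Genes of groups 12 and 13, which mark the hindmost trunk and the distal limb, were found in 7 cells. *Hoxc13* was found in 6 cells, all numbered above 48, with up to 296 CPM, and *Hoxc12* and *Hoxd12* in 2 and 1. Among those found in few cells, *Hoxa3*, *Hoxa4*, *Hoxc11* and *Hoxd4* had UMIs in 2 cells each, and *Hoxb1* and *Hoxd1* in 1 each.

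**Figure D4:**
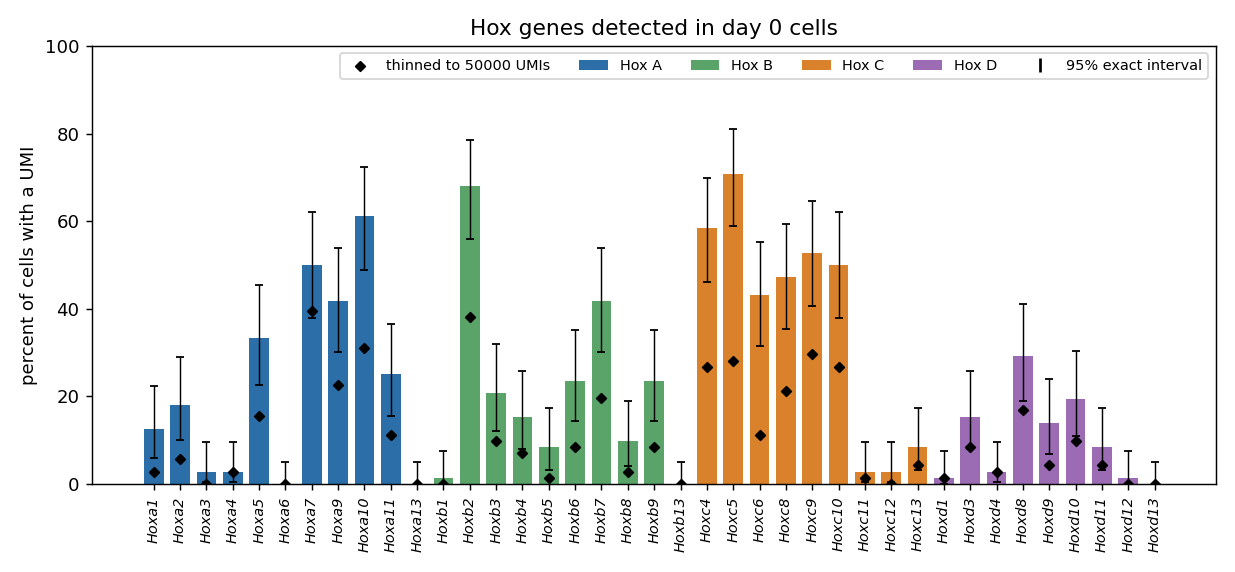
Percent of the 72 day 0 cells with a UMI of each of 39 Hox genes (bars, coloured by cluster, with exact 95% binomial intervals) and of 71 cells thinned to 50000 UMIs (diamonds). The tallest bars are *Hoxc5*, *Hoxb2* and *Hoxa10*, and 4 genes are at 0.

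Other positional factors were also found in a part of the cells. *Osr1*, a factor of trunk and limb mesenchyme, was found in 62 cells with a median of 50.7 and a highest value of 686 CPM. *Shox2*, of proximal limb and girdle, was found in 42 cells with a median of 2.50 and up to 559 CPM, and was higher by 2.05 in mean log2(CPM + 1) in cells numbered above 48. *Hand2* was found in 36 cells. The hindlimb factor *Pitx1* had UMIs in 40 cells and up to 214 CPM, and the hindlimb and forelimb factors *Tbx4* and *Tbx5* had them in 7 and 4 cells, with at most 19.2 and 21 CPM. Of 6 positional factors measured for variation, 3 (*Shox2*, *Osr1* and *Hand2*) had a ratio of at least 2, against 12.2% of all genes.

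Cells of both sexes were seen. *Xist*, transcribed from the inactive X of female cells, had UMIs in 46 cells, and the Y-linked genes *Ddx3y* and *Eif2s3y* in 37 and 29, *Uty* in 7 and *Kdm5d* in 5. With at least 5 UMIs as the limit, 30 cells had more *Xist* than Y-linked UMIs, 22 had more Y-linked UMIs, and in 20 neither reached 5. In the 24 cells with any UMI of both, the lesser was under 5 in 22. The exceptions were cell 54, with 37 *Xist* and 21 Y-linked UMIs, and cell 60, with 9 and 8. Their depths, 283926 and 332925 UMIs, were 0.825 and 0.967 of the median. They were also the cells with the highest *Dcn* and *Lum* (cell 54) and *Acta2* (cell 60); without both, 632 genes again had excess variation, and the correlation was 0.81 between collagens and glycoproteins. Whether they were doublets was not tested.

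Several imprinted growth genes, which are active in the embryo, were found in nearly every cell. *Igf2*, the fetal growth factor, and *H19*, the transcript of the opposite allele, were found in 72 of 72 cells with medians of 505 and 456 CPM and a correlation of 0.70. *Dlk1* was found in 70 cells with up to 1414 CPM, in cell 9. *Cdkn1c*, the maternally expressed inhibitor p57, was found in 65 cells and had a median of 58.7 CPM and 6555 CPM in the cell numbered 65. Of 10 genes of this list measured for variation, 5 had a ratio of at least 2, against 12.2% of all genes. Among immediate early genes, whose levels rise on handling and dissociation, *Ier2* and *Jun* were found in 72 and 71 cells with medians of 140 and 116 CPM, and *Fos* in 54 cells with a median of 9.44 CPM. Of 7 measured, 2 had a ratio of at least 2, against the same 12.2%.

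Against the later groups, day 0 was compared as the mean log2(CPM + 1) of its cells minus the mean of the 11 other group means. Of 11303 genes, 635 were higher by over 1 (5.62%), 940 lower by over 1 (8.32%), and 67 higher by over 1 than every other group (0.593%). The median over all genes was -0.18. The 10 largest differences were those of *Ctgf* (5.51), the serine protease *Prss23* (5.29), *Acta2* (5.02), *Tagln* (4.98), *Tm4sf1* (4.92), the annexin *Anxa3* (4.77), *Ccl2* (4.65), *Bgn* (4.61), *Aspn* (4.35) and *Lox* (4.34). All 5 marker genes were among the 67. *Aspn* had a mean of 255 CPM at day 0 and of at most 6.81 CPM in any other group, and after thinning it was found in 63.4% of day 0 cells and at most 6.85% of cells elsewhere. *Ctgf* had a mean of 263 CPM at day 0 and 7.84 CPM at day 1, from a sum of 11212 UMIs (exact Poisson interval 11005 to 11421) against 434 (394 to 477). These intervals assume independent UMIs and are too narrow, since spike-in counts varied far more than that. They also leave out the spread over cells. The highest later mean of *Tnmd*, at 489 CPM on day 0, was 62.9 CPM at day 8, and that of *Ankrd1*, at 353 CPM on day 0, was 54.8 CPM at day 12.

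By list, 17 of 20 contractile genes were higher at day 0 and none lower, against 5.62% and 8.32% of all genes. *Tagln*, *Acta2* and *Actg2* were among those above every other group. So were *Ctgf* and *Ankrd1*, which are counted in the 17 but had been chosen as day 0 markers and are no independent evidence. Of 24 glycoproteins 11 were higher and 3 lower, and of 16 collagens 6 and 3. *Col1a1* was higher than the mean of the others by 1.52 but lower than the highest, d8, by 2.08. *Dcn* and *Lum* were lower at day 0 than the mean of the others, by 0.53 and 1.64. Among G2/M genes 22 of 53 were higher and none lower, among S phase genes 7 of 41 and none, and among immediate early genes none of 13 and 6. No S phase or G2/M gene was higher by over 1 at day 0 than in every other group. The mean summed G2/M level was 7107 CPM at d0, and in other groups ran from 1708 CPM at d12 to 7686 CPM at d8c. For S phase genes it was 2583 CPM at d0, and elsewhere ran from 953 CPM at d8 to 3805 CPM at d20. Under the TMMwsp and DESeq2 factors and after thinning, the medians of these lists kept their signs, and the median of all genes moved by less than 0.1.

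**Figure D5:**
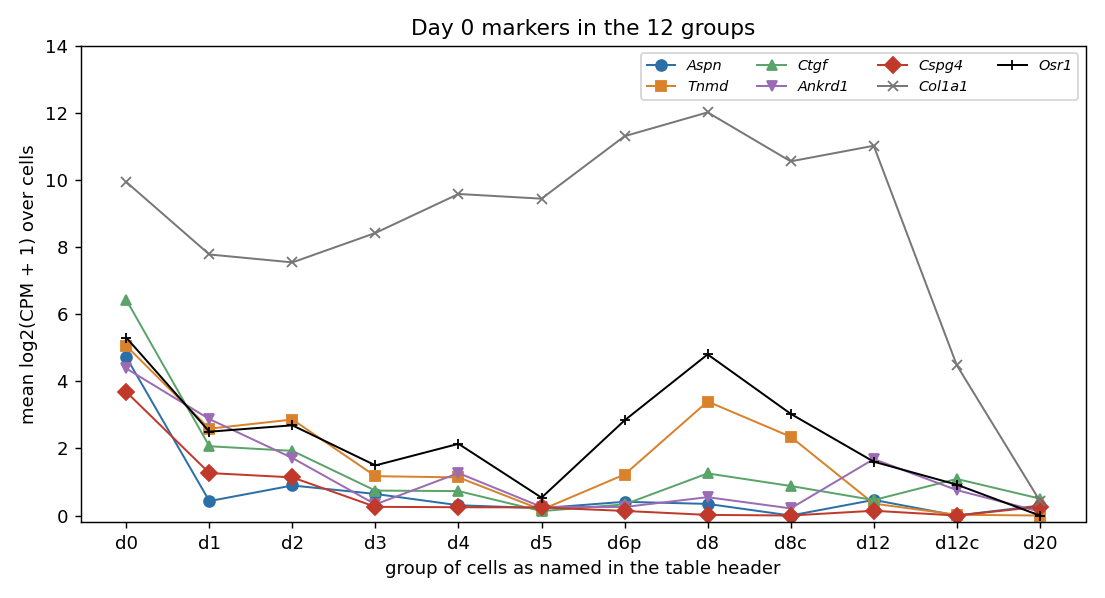
Mean log2(CPM + 1) over cells (vertical) of the 5 day 0 markers, *Col1a1* and *Osr1* in each of the 12 groups (horizontal, in order of time). The 5 markers are highest at d0, *Tnmd* has a second high point at d8, and *Col1a1* is higher at d8 than at d0.

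The 10 genes lowest at day 0 relative to the mean of the others were *Ifitm1* (-4.62), *Nkd1* (-4.35), *Notum* (-4.07), *Lef1* (-4.03), *Pla2g7* (-3.93), *Axin2* (-3.85), *Jarid2* (-3.79), *Fam105a* (-3.63), *Tnfrsf19* (-3.59) and *Htra1* (-3.52). *Nkd1*, *Notum*, *Lef1* and *Axin2* are known targets or feedback inhibitors of WNT signalling, which CHIR99021 activates. In the starting cells they were low but not absent: *Axin2* had UMIs in 47 of 72 cells at a mean of 5.39 CPM, and *Lef1* in 53 at 16.3 CPM. The share of cells at or below 2218 CPM of G2/M genes was 34.7% (23.9 to 46.9) at d0, 5% (0.611 to 16.9) at d1, 72.7% (61.4 to 82.3) at d4, 83.6% (72.5 to 91.5) at d12 and 13.2% (4.41 to 28.1) at d20. It was 20.5% at d2, 42.1% at d3, 50% at d5, 74.4% at d6p and 80.6% at d8. The colony groups d8c and d12c had 40% and 47.1%. In the other groups up to 7 cells lay inside the gap of day 0.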

How the data were processed

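Single-cell RNA sequencing of hand-picked cells was used. As deposited, the authors had split reads by cell barcode, trimmed them, mapped them against mm9 mouse transcripts and collapsed duplicates, so the values are UMI counts per gene and cell. The aligner is not given in the sources used here. Spike-ins (92) were left out of totals, as were 4 entries of duplicated gene names. All 5 counts of 100000 or more are rounded, none at d0. Cell names were unique, and no doublet caller was run. No cell could be assigned to one of the 10 samples, so no test or p-value was computed. The limit of 4000 detected genes was applied first, and kept cells were scaled to CPM, log2 values took a pseudocount of 1, and shares were repeated after thinning to 50000 UMIs, for which 1 day 0 cell was too shallow. Variation was measured for genes with a mean of at least 20 CPM, and the running median is flat for the most abundant genes, for which the window reaches its end. Differences between groups were taken for genes whose mean on that log2 scale reached 1 at d0 or in another group. Poisson and Clopper-Pearson intervals are exact, at 95%, and the Poisson ones assume independent UMIs, which the spike-ins did not follow.

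The 32 gene lists and the rule for named genes were chosen with earlier results of these data known. The rule took the 5 marker genes, the most abundant and the most variable members of each list, Hox and sex-linked genes, list members found in 5 cells or fewer, and the genes of largest variation, difference, correlation and component weight. Genes named for single cells, for the 20 and 38 cells split by *Aspn* and *Tnmd* and for the sides of the G2/M gap were chosen after their values were seen. Scripts ran in Python 3.11.15 (numpy 2.4.6, pandas 2.3.3, scipy 1.17.1), with alternative factors from edgeR 4.0.16 (TMMwsp) and DESeq2 1.42.0, and were tested on simulated data. Gene positions are from GENCODE M1 (mm9). Alternatives covered the filter on cells, scaling, pseudocount, thinning, the threshold and reference of variation, and single cells left out. Results for some genes are not reported here.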

Additional observations from a re-analysis of the deposited data

How the results depend on the processing

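Of the alternatives, 66 values stayed within the limits set for them, 14 moved and none reversed. The number of genes with excess variation, 632, became 249 with a mean of at least 100 CPM, 1100 with at least 5 CPM, 2255 against the spike-in trend and 412 with the highest cell of each gene left out. The numbers higher and lower at d0, 635 and 940, became 235 and 243 with a pseudocount of 10, and 1238 and 1529 from the log2 of the mean CPM. The 67 genes higher than in every other group became 104 with cells of at least 6000 detected genes, 30 with a pseudocount of 10 and 199 from the log2 of the mean CPM. Thinning to 50000 UMIs moved the share of cells with a Hox gene of groups 10 to 13 from 80.6% to 50.7% and that with both *Xist* and Y-linked UMIs from 33.3% to 5.63%, in both cases with fewer UMIs read. The share of cells with the fibroblast list above each other list became 100% with at least 6000 detected genes. For the other moves the cause was not tested. Leaving out cell 4, leaving out the pair of cells with *Xist* and Y-linked UMIs, and the values by running number were chosen after seeing the data. No paired analysis was possible because the samples of the cells are not known. Depth limits low genes, since 1 UMI of 50000 is 20 CPM.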
